A study of Mus musculus with 2 samples.

Results

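Serine, glycine and folate metabolism was followed through 9 genes, taken by gene symbol from the tables of 43346 mouse genes, with all 43 of their transcripts among the 103639 listed. The genes were Phgdh, Psat1 and Psph, which make serine, Shmt1 and Shmt2, which convert it to glycine, Mthfd1, Mthfd1l and Mthfd2, which carry the released carbon on folate, and Tyms, which uses it for thymidylate. All 9 genes and all 43 transcripts were found in both libraries' tables. The cells were G1E-ER4 exposed to 10 nM 17beta-estradiol for 3 h, and their poly(A) RNA was read from both ends of each fragment. G1E-ER4 is an immortal mouse erythroid line of male origin. It lacks an intact Gata1 of its own and carries GATA1, the master erythroid factor, fused to an estrogen receptor domain that estradiol activates. The single group held 2 biological replicates. Both point to the same cell sample record, and their spread may thus be only technical. Untreated cells were not analysed here. The values are therefore levels after estradiol and say nothing of a response to it.

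In the textbook pathway, serine is made from the glycolytic intermediate 3-phosphoglycerate by PHGDH, PSAT1 and PSPH in turn. Serine hydroxymethyltransferase moves a carbon from serine to tetrahydrofolate and leaves glycine, with SHMT2 in the mitochondrion and SHMT1 mainly in the cytosol. In the mitochondrion MTHFD2 oxidises the folate-bound carbon and MTHFD1L releases it as formate, which MTHFD1 takes up again in the cytosol for purine and thymidylate synthesis. Dividing red cell precursors use these units for DNA, and they use glycine in the first step of heme synthesis.

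Replicate 1 held 31126957 expected counts, the deposited estimates of fragments per gene, and replicate 2 held 57853617. All 14 erythroid markers reached 1 TPM in both libraries, where TPM is a transcript's abundance per length, summing to an equal total in each library. Among them were Gata1, Zfpm1, Klf1, Tal1, Gfi1b, Nfe2, Epor, Alas2, Slc4a1, Hba-a1, Hba-a2, Hbb-bs and Hbb-bt, with means from 1.94 TPM (Slc4a1) to 5174 TPM (Hbb-bs). Their summed level was 6449 TPM in replicate 1 and 21998 TPM in replicate 2. The 4 globins made up 2587.5 and 18851 TPM of these sums, and the other 10 markers 3862 and 3146 TPM. These sums differed in opposite directions, but the 10 markers did not all share the direction of theirs. Zfpm1 alone had 2427 and 1438 TPM. Gata1 had 190 and 799 TPM, which cannot be split here between the introduced fusion and the line's own Gata1, which is not intact. On counts scaled to library size, 4 of the 10 were at least 2-fold higher in replicate 2 and 0 in replicate 1. Gata1 was among them, and all 4 globins were also higher in replicate 2 by that limit. Of all genes compared, 19.5% were at least 2-fold higher in replicate 2 and 7.32% in replicate 1. A level of 1 TPM in both libraries was reached by 0 of 10 granulocyte and monocyte, 0 of 10 lymphocyte and 0 of 8 fibroblast markers. It was reached by 2 of 8 mast cell and 3 of 9 megakaryocyte markers. The highest of each list by mean TPM were Prtn3 at 0.77, Lck at 1.21, Col1a2 at 0.515, Il1rl1 at 7.99 and Gp5 at 109. The summed level in replicates 1 and 2 was 2.37 and 0.22 TPM for granulocyte and monocyte markers, 1.18 and 2.53 for lymphocyte, 0.55 and 0.68 for fibroblast, 14.0 and 12.5 for mast cell and 178 and 153 for megakaryocyte markers. Among the defining markers without any count were Lyz2, S100a8, Cd3e, Cd4, Fcer1a, Ppbp, Vwf, Pdgfra and Dcn.

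Of the 9 genes, 8 reached 1 TPM in both replicates, against 20.2% of all genes, and Phgdh did not. Shmt2 stood highest, followed by Mthfd1 and Mthfd1l, and these 3 gave most of the summed level of 561.07 TPM in replicate 1 and 629.55 TPM in replicate 2. Shmt2 alone made up 56.6% and 61.9% of that sum. Mthfd2, Psat1, Tyms, Psph and Shmt1 came next, and the 2 values of each of them overlapped in range with those of its neighbour in the order. In bulk RNA, fewer cells of a type and less RNA per cell cannot be told apart.

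**Figure D1:**
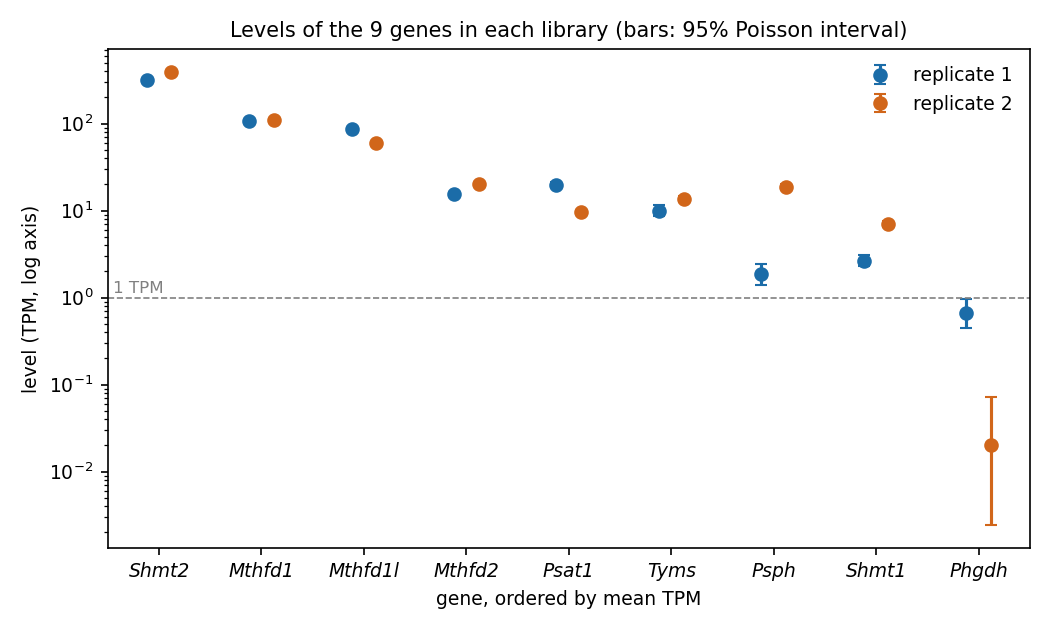
Level of each of the 9 genes in TPM on a log axis, with 1 point per replicate and bars for the 95% Poisson interval of its count, which covers counting error only. Shmt2 lies above 300 TPM in both replicates, while Psph and Phgdh show the widest gaps between replicates.

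For the step from serine to glycine, RNA of the mitochondrial enzyme far exceeded that of the cytosolic one in both libraries. Shmt2 (ENSMUSG00000025403.4, chr10:127517123-127522444, minus strand) had 17068 expected counts in replicate 1 and 43977 in replicate 2, or 317.3 and 389.69 TPM (354 ± 51.2, SD, n = 2). Among genes with at least 1 TPM it stood at the 94.3 percentile in replicate 1 and the 96.3 percentile in replicate 2. Shmt1 (ENSMUSG00000020534.10, chr11:60788104-60811718, minus strand) had 174 and 636 expected counts, or 2.67 and 7.06 TPM (4.87 ± 3.10, SD, n = 2). Shmt2 exceeded Shmt1 119-fold in replicate 1 and 55.2-fold in replicate 2 by TPM, and the log2 ratio of TPM + 1 was 6.02 ± 0.59 (SD, n = 2). With 2 libraries an exact two-sided sign permutation test of such a ratio cannot go below p = 0.5, so gene pairs are given by their values and the direction in each library. The last bases of Shmt2 overlap Ndufa4l2 on the opposite strand, which had 14565 and 19336 expected counts, and whether counting used strand is not given in the sources used here.

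The promoters at both ends of this order are shown because Shmt2 was the most and Phgdh the least abundant of the 9. Each line gives bases 250 to 31 before the RefSeq start on GRCm38.p6, 5′ to 3′ on the gene's strand, with CCAAT in either orientation in capitals (this letter string is the box bound by the factor NF-Y in many promoters). The Shmt2 stretch is chr10:127522475-127522694 and the Phgdh stretch is chr3:98340000-98340219, both on the minus strand.
Shmt2: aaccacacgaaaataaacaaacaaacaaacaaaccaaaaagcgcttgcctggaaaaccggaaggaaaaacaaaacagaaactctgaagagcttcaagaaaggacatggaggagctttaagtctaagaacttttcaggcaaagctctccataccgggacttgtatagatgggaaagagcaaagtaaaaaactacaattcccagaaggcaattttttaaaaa
Phgdh: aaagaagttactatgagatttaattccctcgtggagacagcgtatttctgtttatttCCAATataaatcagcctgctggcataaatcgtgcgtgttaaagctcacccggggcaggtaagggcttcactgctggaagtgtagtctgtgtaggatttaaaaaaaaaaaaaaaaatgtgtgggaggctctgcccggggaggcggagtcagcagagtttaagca

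The most abundant gene had no CCAAT in its window, and the least abundant had 2, of which 1 lies in the stretch shown. All 9 genes matched a RefSeq window of 300 bases, from 250 before to 50 after the start, and Psat1 matched 2 windows. CCAAT, searched on both strands, occurred in windows of 6 of the 9 genes and in 37.4% of all 32851 windows. Besides Shmt2 and Phgdh, Mthfd1l and Tyms had 0, Mthfd1 and Shmt1 had 1, Psph had 2 and Mthfd2 had 3. The 2 windows of Psat1 had 3 and 0. GGGCGG occurred in 6 genes and in 35.7% of windows, and CACGTG, the string bound by MYC and its partners, in Tyms alone and in 7.15% of windows. TGATGNAA, a core of sites for the stress factor ATF4, occurred in no window of the 9 genes and in 3.97% of all windows. AGATAA, a form of the sites that the erythroid factor reads, likewise occurred in none of the 9 genes and in 11.2% of all windows. Other forms of these sites were not searched. All strings were searched on both strands, and no match says only that these letters are not in the window. The strings were chosen after the sequences had been seen.

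The 3 genes of the folate-bound carbon's path were unequal. Mthfd1, the cytosolic enzyme with 3 activities (ENSMUSG00000021048.6, chr12:76255298-76319803, plus strand), had 106.53 TPM in replicate 1 and 110.98 TPM in replicate 2 (109 ± 3.15, SD, n = 2). Its expected counts were 8423 and 18452. Mthfd1l, the mitochondrial formate-releasing synthetase (ENSMUSG00000040675.13, chr10:3973118-4167081, plus strand), had 86.79 and 59.66 TPM (73.2 ± 19.2, SD, n = 2). The cytosolic gene was higher than Mthfd1l in both libraries, with log2 ratios of Mthfd1l to Mthfd1 of -0.29 and -0.88.

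Mthfd2, the mitochondrial dehydrogenase and cyclohydrolase (ENSMUSG00000005667.6, chr6:83305691-83325908, minus strand), had 15.36 TPM in replicate 1 and 20.18 TPM in replicate 2 (17.8 ± 3.41, SD, n = 2). Its level was 0.144 and 0.182 times that of Mthfd1, and 0.177 and 0.338 times that of Mthfd1l. The related mitochondrial gene Mthfd2l had 2.59 and 1.69 TPM, and Mthfd2 was 5.93-fold and 11.9-fold higher. Mthfd2 was thus below both Mthfd1 and Mthfd1l and above its paralog in each library.

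The order of the serine synthesis genes was not the same in both libraries. Psat1, the transaminase (ENSMUSG00000024640.5, chr19:15904678-15947337, minus strand), had 19.87 TPM in replicate 1 and 9.67 TPM in replicate 2 (14.8 ± 7.21, SD, n = 2). Psph, the phosphatase that ends the route (ENSMUSG00000029446.10, chr5:129765558-129787449, minus strand), had 1.87 and 18.76 TPM (10.3 ± 11.9, SD, n = 2). Psat1 was 10.6-fold higher than Psph in replicate 1 and 0.516 times its level in replicate 2.

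Phgdh, the dehydrogenase that opens the route (ENSMUSG00000053398.7, chr3:98313170-98339990, minus strand), had 29 expected counts in replicate 1 and 2 in replicate 2. These are 0.67 TPM (95% Poisson interval 0.449 to 0.962) and 0.02 TPM (0.00242 to 0.0722). The count of 2 is below the 3 counts that a count of 0 allows. Phgdh was 0.0337 times the level of Psat1 in replicate 1, and in replicate 2 its count was too low for a ratio. Of the 50-base words in Phgdh transcripts, 38.3% occur in the processed pseudogene Gm7901, which had no count in either library, so the split of reads between Phgdh and its copies is uncertain.

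Tyms, thymidylate synthase, the enzyme that makes the DNA-specific nucleotide with folate as carbon donor (ENSMUSG00000025747.8, chr5:30058202-30073617, minus strand), had 10.01 TPM in replicate 1 and 13.53 TPM in replicate 2 (11.8 ± 2.49, SD, n = 2). Expected counts were 207 and 651.

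The leading Tyms model in both libraries was one that holds an intron, and not the coding transcript. Tyms-202, a retained-intron model of 816 bases, had 47.3% of the gene's TPM in replicate 1 and 88.7% in replicate 2. The protein-coding Tyms-201, of 3163 bases, had 5.79% and 9.88% of TPM, or 0.58 and 1.34 TPM, and 21.0% and 32.4% of expected counts. Tyms-205, annotated for nonsense-mediated decay, had 44.8% in replicate 1 and 0 in replicate 2. The models part at the end of exon 4, at base 30064085 of chromosome 5, where Tyms-201 goes on with exon 5 and Tyms-202 runs on through chr5:30063846-30064084. The lines below give 30 bases on each side of that point from GENCODE M21 transcripts on GRCm38, minus strand, 5′ to 3′, with the bases after exon 4 in capitals, to show the letters by which a fragment can tell the models apart.
Tyms-201: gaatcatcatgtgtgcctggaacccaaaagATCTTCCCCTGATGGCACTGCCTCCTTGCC
Tyms-202: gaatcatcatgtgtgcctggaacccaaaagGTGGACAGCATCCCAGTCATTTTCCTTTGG

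Both models share the first 30 letters, and 70.7% of the bases of Tyms-202 lie in exons of Tyms-201. The tables give no count per junction, so the shares are the authors' estimates. Fragments from RNA that still held this intron cannot be told apart here from a stable transcript that ends there.

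Of the 9 genes, 7 had the same most abundant transcript in both replicates, and 5 of the 7 genes with several models did. The replicate 2 leader of Phgdh rests on 2 counts, and without Phgdh, 4 of 6 genes with several models and at least 1 TPM in both libraries kept theirs and 2 did not. Among all genes with several models and at least 1 TPM in both libraries, the most abundant transcript differed in 26.9%. The genes that differed were Mthfd1l and Shmt1. Mthfd1l-201 held 79.3% of the gene's TPM in replicate 1 and 0.44% in replicate 2, and Mthfd1l-202 held 20.7% and 99.6%. These models encode the same 2931 coding bases. The model with the larger share in replicate 2 has 26 more bases at the 5′ end and 108 more at the start of its last exon, after the stop codon, at chr10:4155542-4155649. In all genes of that kind, 12.4% had a transcript whose share differed by at least 50 points, as one did in both Mthfd1l and Shmt1.

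Shmt1-201, the coding model, held 93.8% of Shmt1 TPM in replicate 1 and 39.5% in replicate 2. Shmt1-208, a processed transcript with no coding sequence, held 0 and 53.5%. It shares 91.0% of its bases with Shmt1-201, and by expected counts Shmt1-201 led in both libraries, with 97.2% and 62.2%. By this split of TPM, the protein-coding part of Shmt1 was 2.67 TPM in replicate 1 and 2.87 TPM in replicate 2. The gene's higher TPM in replicate 2 then lay almost entirely in models without a coding sequence. By the deposited posterior mean shares, Shmt1-201 held 54.4% and 35.2% and Shmt1-208 held 2.87% and 45.2%. The split between coding and other models thus depends on the estimate used.

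In the serine synthesis genes, Psat1-201 led with 46.2% and 57.1%, while the processed transcript Psat1-202 had 29.0% and 13.4% and the retained-intron model Psat1-204 had 23.1% and 19.3%. Psph-201 led with 50.6% and 53.1%. Phgdh counts were all on Phgdh-201. Mthfd2-201 held 99.4% and 99.1%, and Shmt2 and Mthfd1 have 1 transcript each in the tables. The share of TPM on protein-coding models thus ran from nearly all, in Shmt2, Mthfd1, Mthfd1l and Mthfd2, to 5.79% and 9.88% in Tyms.

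**Figure D2:**
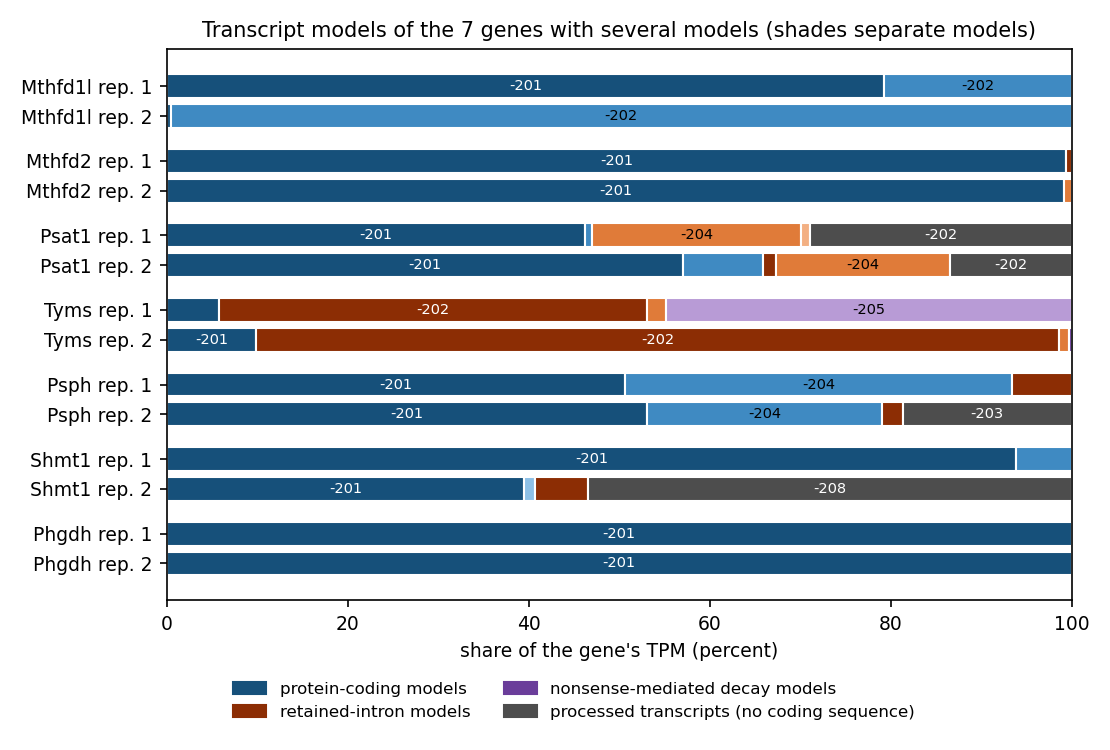
Share of each gene's TPM in percent by transcript model, with 1 bar per replicate for the 7 genes that have several models. Colours stand for the annotated kind of model and shades separate models. Mthfd1l and Shmt1 have different leading models in the replicates, and retained-intron models lead in Tyms in both.

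The replicates were then compared on scaled counts, which are expected counts divided by library sizes adjusted with TMM factors, with a prior count of 2 in ratios. All 9 genes passed the filter of 20 counts summed over both libraries. All 9 differed beyond counting noise by an exact conditional binomial test. The higher level was in replicate 2 for 6 and in replicate 1 for 3. Phgdh passed the filter through replicate 1 alone, so its difference was fixed in advance. The test compares 2 libraries of 1 group and knows no biological spread, and 80.4% of the 10635 genes compared passed it, with 37.2% higher in replicate 1 and 43.1% in replicate 2. The median log2 ratio of replicate 1 to replicate 2 was -0.64 over the 9 genes and -0.06 over all genes compared. Over all genes the share of passing calls that were higher in replicate 1 was 46.3% with TMM factors, 55.2% with total counts and 57.5% with upper-quartile factors, and the median moved to 0.11 and 0.16. The 9 genes kept their 3 to 6 split under these scalings.

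A difference of at least 2-fold was found in 3 of the 9 genes, against 26.8% of all genes compared. Phgdh, 1 of these 3, had to differ for the reason given below. Phgdh was higher in replicate 1, where 7.32% of all genes were, and Psph and Shmt1 were higher in replicate 2, where 19.5% were. Psph differed 11.0-fold on scaled counts, with a Benjamini-Hochberg adjusted p of 1.04e-128 by the exact binomial test on 50 and 936 counts. Psph shares 8.82% of its 50-base words with Cct6a, an overlapping gene on the opposite strand with 9612 and 12258 counts. These words are from GENCODE M21, where the leading model Psph-201 has 1733 bases against 1488 as deposited. Whether the counted models share as much is therefore uncertain. Shmt1 differed 2.21-fold, and its log2 ratio of -1.14 came to -0.97 with total counts and -0.93 with upper-quartile factors, both under 2-fold. Shmt1 also overlaps an oppositely directed gene, Smcr8, with 206 and 475 counts. Phgdh passed the filter through its count in replicate 1 and so had to differ. It differed 11.2-fold on scaled counts with the prior count of 2. Without a prior count the ratio was 23.9, with a 95% counting interval of 6.05 to 207. On log2(TPM + 1) the difference was 0.71, under 2-fold.

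The other 6 genes differed less. Tyms was 1.90-fold, Mthfd2 1.66-fold, Shmt2 1.56-fold and Mthfd1 1.33-fold higher in replicate 2. Psat1 was 1.33-fold and Mthfd1l 1.11-fold higher in replicate 1. On TPM, which follows transcript length and the level of every other gene, Psat1 differed 2.05-fold and Mthfd1 1.04-fold. Sequencing depth, fragment size and the leading genes moved with the replicates too. Length exceeded effective length by a median of 136 bases in replicate 1 and 152 in replicate 2, and Gapdh, a glycolytic enzyme, had 956 TPM in replicate 1 and 21738 TPM in replicate 2. The part of these in the differences was not tested.

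**Figure D3:**
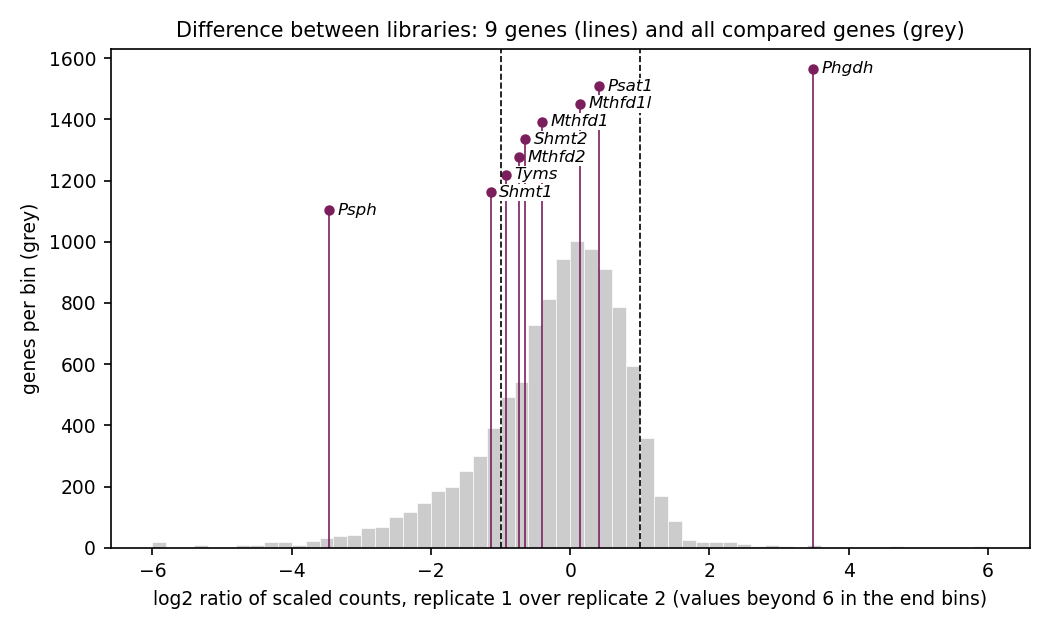
Log2 ratio of scaled counts in replicate 1 to replicate 2 for the 9 genes (purple lines, heights only for legibility) over the distribution of 10635 genes compared (grey bars), with dashed lines at 2-fold. Psph and Phgdh lie far out on opposite sides, Shmt1 just past the 2-fold line, and the other 6 between the lines.

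Around the 9 genes, 10 lists of pathway neighbours held 84 different genes, of which 57 reached 1 TPM in both libraries, as 20.2% of all genes did, and 11 had no count in either. Of 62 neighbours compared, 4 were at least 2-fold higher in replicate 1 and 19 in replicate 2, where 7.32% and 19.5% of all genes compared were. Their median log2 ratio was -0.42, against -0.06 over all genes. With upper-quartile factors these counts were 5 and 15 and the neighbours' median was -0.20. The calls of Gart, Nfe2l2, Srr and Tk1 ended with those factors, those of Gart, Nfe2l2 and Tk1 also with total counts, and Paics, named after its values were seen, passed 2-fold in replicate 1 with both. Levels below are TPM in replicate 1 and then replicate 2, while 2-fold calls rest on scaled counts, so a call and the ratio of TPM can differ in size. The lists were chosen with results of these data known.

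In folate interconversion, 4 of 8 genes reached 1 TPM in both libraries. Mtfmt, which formylates the initiator methionyl-tRNA of mitochondria, was highest with 14.4 and 7.74 TPM. Mthfs, which recycles formyl-folate, followed with 11.9 and 3.74 TPM and was at least 2-fold higher in replicate 1, the only gene of the list to be so. Ftcd, of histidine breakdown, had no count. In folate uptake and retention, 3 of 7 genes reached 1 TPM. Fpgs, which adds the glutamate tail that holds folate in the cell, had 166 and 72.3 TPM, and Slc19a1, the reduced folate carrier, had 20.3 and 28.7 TPM. Ggh, which removes that tail, and the receptor gene Folr2 had no count, and no gene of the list differed 2-fold.

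The glycine cleavage system was detected only in part. Gcsh, its lipoyl carrier, had 28.1 and 15.7 TPM, and Dld, a dehydrogenase shared with other complexes, had 7.83 and 11.7 TPM. Gldc and Amt, its decarboxylase and aminomethyltransferase, had no count in either library, which allows up to 3 counts as a one-sided limit, or 9.64e-06% of counts in replicate 1 and 5.19e-06% in replicate 2. Neither of the compared genes differed 2-fold.

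Among serine and glycine transporters, 5 of 8 reached 1 TPM in both. Slc25a39, a mitochondrial carrier now known for glutathione import, led by mean TPM, with 141 and 273 TPM. It was at least 2-fold higher in replicate 2, as was Sfxn3 with 0.86 and 2.44 TPM. Slc25a38, the mitochondrial glycine carrier that serves heme synthesis, had 165 and 80.3 TPM and was the highest of the list in replicate 1. Slc6a5, a neuronal glycine transporter, was lowest with 0.05 and 0 TPM. Sfxn1, the mitochondrial serine carrier, was named after its values were seen and had 43.3 and 30.5 TPM.

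Of 15 genes that use or break down serine and glycine, 8 reached 1 TPM in both and 4 had no count. Gclm, the modifier subunit of the enzyme that opens glutathione synthesis, was highest with 930 and 372 TPM, and its catalytic partner Gclc had 47.6 and 23.8 TPM. Gclm and Sdsl, at 0.56 and 0.17 TPM, were at least 2-fold higher in replicate 1. Alas2, the erythroid enzyme that joins glycine to succinyl-CoA, had 1.82 and 6.70 TPM, and its general form Alas1 had 1.26 and 4.68 TPM. Both were at least 2-fold higher in replicate 2, together with Sptlc1, of sphingolipid synthesis, at 1.04 and 4.39 TPM and Srr, serine racemase, at 1.38 and 2.58 TPM. The genes without a count were Gatm, Glyat, Sardh and Sds.

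In the methionine cycle and transsulfuration, 7 of 12 genes reached 1 TPM in both. Mat2b led with 44.5 and 59.0 TPM and Ahcyl1 had 34.1 and 18.9 TPM. Mtrr, which keeps methionine synthase active, had 2.83 and 8.06 TPM and alone was at least 2-fold apart, higher in replicate 2. Bhmt and Bhmt2 had no count.

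De novo purine synthesis, which takes part of its carbon from formyl-folate, was expressed nearly throughout, with 10 of 11 genes at 1 TPM or more in both. Impdh2 led with 110 and 130 TPM and Gart, which carries a formyl transfer step, had 59.3 and 107 TPM. Gart and Adsl, at 17.0 and 51.9 TPM, were at least 2-fold higher in replicate 2. Adssl1, the muscle form of its enzyme, was lowest with 0.07 and 0.01 TPM.

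All 8 genes of thymidylate supply reached 1 TPM in both, and the lowest was Dctd, a deaminase that feeds the thymidylate precursor, with 16.4 and 13.8 TPM. Dut, which makes the substrate of thymidylate synthase, had 467 and 176 TPM and was at least 2-fold higher in replicate 1. Rrm2, the small ribonucleotide reductase subunit, had 89.1 and 511 TPM, and it was at least 2-fold higher in replicate 2. So were Dctpp1 at 31.2 and 188 TPM and thymidine kinase Tk1 at 103 and 114 TPM.

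The glycolytic genes that lead to 3-phosphoglycerate and away from it were all detected, and 4 of 5 were at least 2-fold higher in replicate 2. They were Gapdh, Pkm at 309 and 1292 TPM, Eno1 at 122 and 1030 TPM and Pgam1 at 147 and 460 TPM. Pgk1, which makes 3-phosphoglycerate, was lowest with 37.9 and 24.8 TPM and did not. Of 6 regulators of the pathway, 5 reached 1 TPM in both. Myc had 324 and 467 TPM, and Atf4, the stress factor known to induce Phgdh, Psat1, Mthfd2 and Shmt2, had 72.4 and 77.0 TPM. Ddit3 at 9.91 and 60.3 TPM, Nfe2l2 at 11.3 and 17.6 TPM and Nupr1 at 0.29 and 1.16 TPM were at least 2-fold higher in replicate 2.

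**Figure D4:**
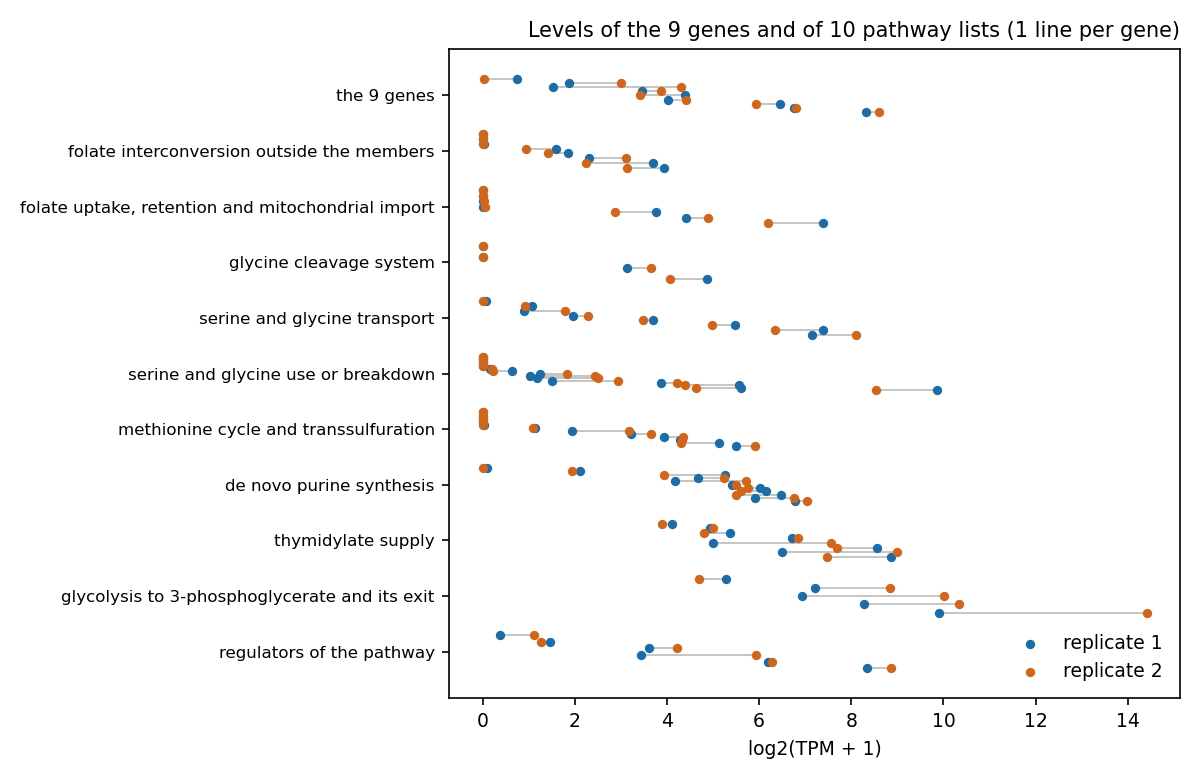
Level of each gene as log2(TPM + 1), with 1 line per gene and 1 point per replicate, for the 9 genes and 10 lists of neighbours. Thymidylate supply and glycolysis lie to the right of the plot, and genes listed at 0 TPM line up at its left edge.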

How the data were processed

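RNA of 1 group of 2 libraries was analysed from a gene table and a transcript table per library. Per the text deposited with the tables, reads were placed on mm10 and quantified on GENCODE M4 from transcriptome alignments, with replicates not pooled, and the sources used here name neither aligner nor quantifier. The deposited expected counts are estimated fragments per gene or transcript, per the file headers, and need not be whole. The deposited TPM values and, as an alternative, the deposited FPKM values are scaled by effective length, per the file headers. The percent of a gene's TPM on each transcript was also deposited by the authors, with posterior means of counts, TPM and percent as alternatives.

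The members and gene lists were chosen with earlier results of these data known. Symbols were matched by gene identifier without version (42462 of 43346 genes). Named are the 9 genes, both genes of each of 7 pairs, the 2 highest and the lowest gene of each pathway list and its genes at least 2-fold apart, the erythroid markers and the highest marker of each other cell type. Expected counts were rounded to whole numbers. Genes with at least 20 summed counts were compared on TMM library sizes (edgeR 4.0.16) by an exact conditional binomial test, two-sided, with Benjamini-Hochberg adjustment at 0.05, since 1 library a side leaves edgeR's quasi-likelihood fit without residual degrees of freedom. The test was tested on simulated data. Intervals are exact Poisson or binomial at 95% and cover counting error only. Positions, transcript kinds and junctions came from GENCODE M21 on GRCm38, in which all 43 transcripts matched by identifier and 36 had the deposited length. Alternatives were DESeq2 1.42.0 size factors, total counts, upper-quartile factors, other priors, filters, pseudocounts and detection limits, posterior means, and leaving out each replicate. Spike-in and numbered entries, with at most 1 count per library, were left out, and some values are not reported here.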

Additional observations from a re-analysis of the deposited data

How the results depend on the processing

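No paired analysis was possible because both libraries belong to 1 group. All 54 recomputed replicate ratios of the 9 genes kept their direction, and the 45 of them with a test kept their side of the threshold. Of 36 recomputed levels, 35 stayed within 1 SD of the reported mean, which single-library values do by construction, and Mthfd1 came to 92.7 as FPKM. All 9 genes passed the count test under every scaling and filter tried, though Phgdh entered it through its count in replicate 1 and had to differ. With a limit of 1.5-fold in place of 2-fold, 6 genes lay apart in place of 3, and with 10 TPM in place of 1 TPM, 5 were detected in place of 8. With expected counts not divided by length, mean log2 pair ratios moved to -3.35 for Mthfd2 to Mthfd1, -2.88 for Mthfd2 to Mthfd1l and -6.52 for Phgdh to Psat1. The mean log2 ratio of Phgdh to Psat1, -3.52 on TPM + 1, came to -5.52 with a pseudocount of 0.1 and -3.29 with posterior mean TPM. These means and the -6.52 above include replicate 2, where the Phgdh count was too low for a ratio. They show only how much the choice of setting matters there. The ratio of Psat1 to Psph changed sign with the library, from 2.86 without replicate 2 to -0.89 without replicate 1. The leading transcript was the same in 6 genes by posterior means and in 8 by expected counts, against 7. Phgdh had the fewest counts of the 9 genes, 29 and 2, so its ratios are the least precise.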
